A study of Rattus norvegicus with 4 samples.

Results

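The motile cilium genes described here are the genes whose symbol begins with Cfap, Dnah, Dnai, Drc, Rsph, Spag or Tekt followed by a digit. Of 32623 genes in the count matrix, 68 have such a symbol, and the 57 with at least 20 unique molecular identifiers (UMIs, each standing for 1 captured transcript) over the whole matrix are the members. The other 11 hold 0 to 18 UMIs and include Rsph4a (18), Tekt5 (16), Spag4 (14), Spag16 (12), Dnah17 (11) and Rsph6a (11), a second Spag5 entry (4), and Cfap58, which holds 1. Levels and the share of cells with a UMI were described in ependymal cells and in 16 other marker-gated types, and then the members found outside ependymal cells.

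The study sequenced single cells from the hippocampus of wild-type adult male Sprague Dawley rats aged 10 to 12 months, with a droplet method that counts the 3′ ends of transcripts. Its 4 titled samples are NC (a negative control), MCAO (occlusion of 1 middle cerebral artery), DEPR and MD, the last 2 of which both carry the description of a chronic stress stimulation; the design text describes occlusion in both of its groups, followed in one of them by stress, and tissue from 5 rats per group, and does not say whether their cells were pooled. Cell barcodes carry suffixes 1 to 4, here called sets 1 to 4, and nothing used here ties a set to a titled sample, so no condition was compared and each set's value is given as 1 unassigned library. The sets held 36242408 to 54295520 UMIs in 5884 to 9504 barcodes, 27937 cells were kept in all, and 96 barcode sequences occur in more than 1 set.

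A motile cilium beats because dynein arms, fixed to a ring of microtubule doublets called the axoneme, walk along the neighbouring doublet. Outer arms provide much of the force, inner arms shape the bend, and radial spokes, the central apparatus and the nexin-dynein regulatory complex control when each arm is active. Proteins inside the doublet wall stabilise it, and arms are put together in the cytoplasm by assembly factors before transport into the cilium. In the brain, ependymal cells carry tufts of such cilia that face the ventricles.

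Ependymal cells were taken as kept cells with at least 5 UMIs summed over Ccdc153, Fam183a and Dynlrb2. This found 165 cells, namely 63, 65, 21 and 16 in sets 1 to 4, with a median of 14267 UMIs per cell. The comparison group was the 17024 other cells that passed exactly 1 of the 16 other marker gates, with a median of 5337 UMIs. Oligodendrocytes and microglia held 48190610 and 22520952 of its 97143269 UMIs, so its pooled values mostly reflect these types. A gene higher than in this group need not be higher than in every type. The gate genes are themselves associated with cilia, so the gate selects for cells that express genes of this kind, and the ratios below are descriptions with no test. Of 6 further ependymal markers, Tmem212 was found in 99.4% of the gated cells at 654 CPM, Cd24 in 98.8% at 1091 CPM and Nnat in 80.6% at 240 CPM, and each stood under 8 CPM in the other types of at least 50 cells. In smaller types, Nnat stood at 190 CPM in 31 oligodendrocyte precursors, found in 45.2% of them, and Cd24 at 407 CPM in 4 neurons. Rarres2, in 83.0% of the ependymal cells, and Vim, in 100%, do not set these cells apart: Rarres2 stood higher in pericytes, at 1209 against 314 CPM, and Vim was found in 92.2% of smooth muscle and 86.7% of endothelial cells. Mia was found in 2.42%. Of the same cells, 151 also passed the astrocyte gate through Aqp4 and Gfap, with Slc1a2 at 0, and 100 passed the choroid plexus gate through Folr1 and Clic6, with Kl, Otx2 and Ttr at 0. Another 22 passed the oligodendrocyte precursor gate, through Tnr, and 13 passed no other gate at all.

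The member level did not follow the gate evenly. Cells with 1 or 2 gate UMIs, 186 in all, held a median of 2 members each and a summed member level of 392 CPM (UMIs per 1000000 UMIs of the cells). Just below the gate, 4 cells with 3 or 4 gate UMIs held a median of 6.5 members each, at a median depth of 883 UMIs, and a summed level of 11323 CPM, close to that of the cells far above the gate. Just above it, 5 cells with 5 to 9 gate UMIs held a median of 11 members and a lower summed level, 3697 CPM. The 160 cells with 10 or more gate UMIs held a median of 42 members and 11701 CPM.

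Summed over members, the motile cilium genes stood far higher in ependymal cells than in any other gated type. The members' summed level was 11615 CPM in ependymal cells (95% Poisson interval 11485 to 11746, counting error only), against 395 CPM in the other gated cells. Among types of at least 50 cells, the sum ran from 28.6 CPM in erythroid cells to 571 CPM in pericytes. Among smaller types it ran from 103 CPM in 8 B cells to 1127 CPM in 31 oligodendrocyte precursors. By set it was 11226, 11436, 13012 and 13139 CPM in ependymal cells, while the other cells stayed between 372 and 403 CPM. No set's ependymal value came near the values of the other cells. Ependymal cells held 30516 of the 94137 member UMIs of the matrix, and 42 members had at least 50% of their UMIs there.

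A gene was called higher where its CPM was at least 2 times that of the other gated cells in all 4 sets, with at least 20 UMIs in both together. By that rule 52 of the 56 members with enough UMIs were higher, beside 13.8% of the 14978 genes examined in the same way. The minimum counts both groups, so members such as Rsph14 and Tekt3, with 0 and 2 UMIs in the other cells, reach it only through ependymal UMIs. For such members higher was nearly the only call open, so the count of 52 is in part set by the minimum. This also holds for the counts by role and list below. The members' median log2 ratio, with 1 CPM added to both sides, was 6.83, beside -0.12 for all genes, and was 6.75, 6.68, 6.98 and 6.82 in sets 1 to 4. The 4 exceptions were Spag9, Spag7 and Spag5, which work outside the axoneme, and Dnah8; Cfap97d1 held too few UMIs to be called. With the 13 ependymal cells that pass no other gate, 15 of 36 members were higher and the median was 6.25. With the 149 ependymal cells that pass no gate but those of astrocytes, choroid plexus and precursors, 52 of 56 were higher and the median was 6.88.

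**Figure D1:**
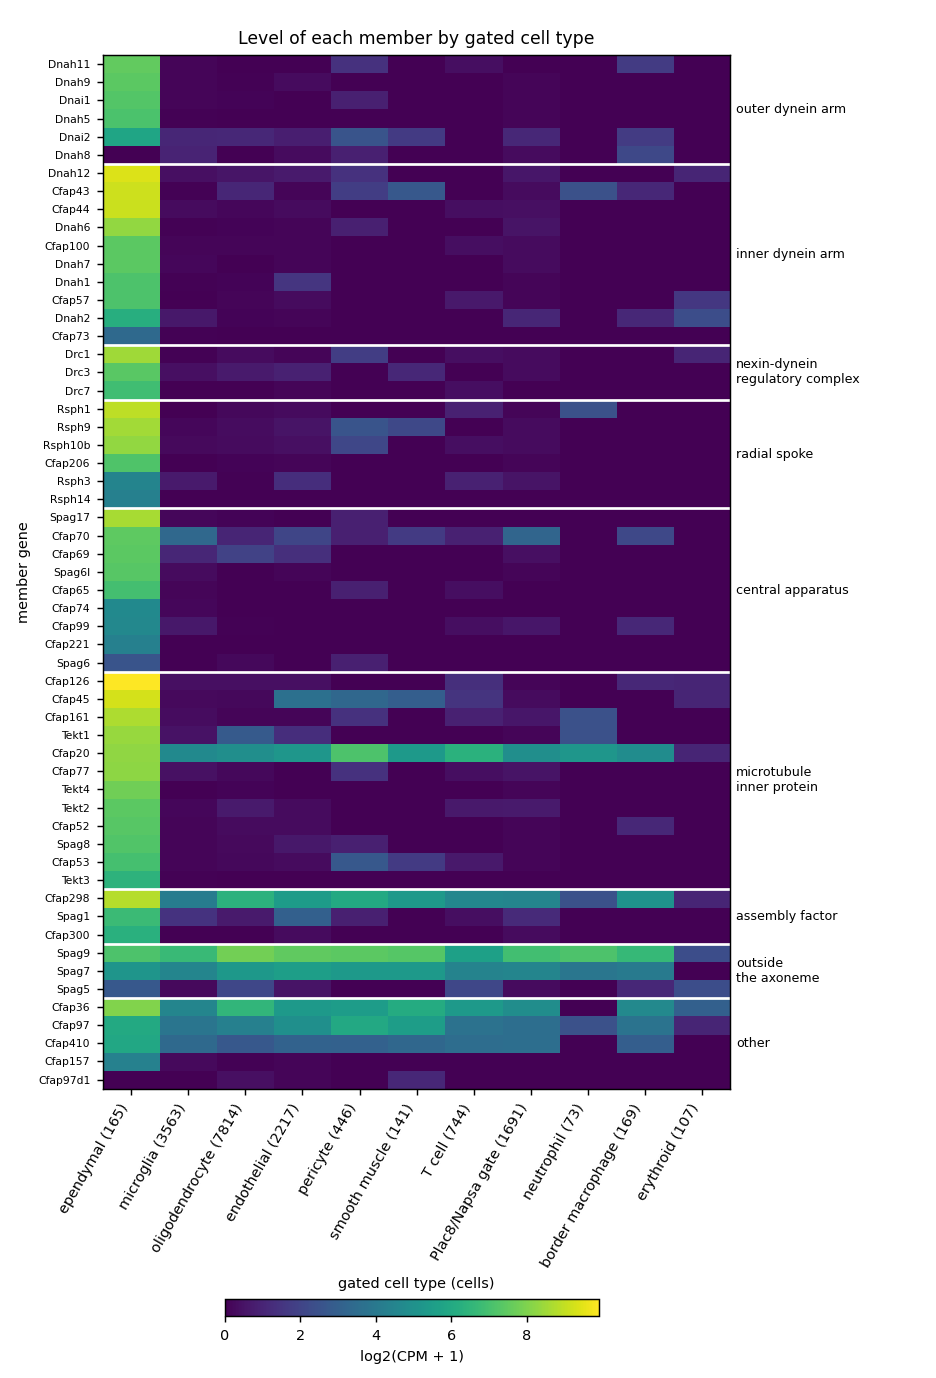
Level of the 57 members (rows, grouped by role) in ependymal cells and in the 10 other gated types with at least 50 cells (columns, number of cells in brackets), as log2(CPM + 1) pooled over sets. The ependymal column is bright for most rows, and the rows that are bright across columns are Spag9, Spag7, Cfap20, Cfap298, Cfap36, Cfap97 and Cfap410.

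Outer dynein arm genes were higher in ependymal cells for 5 of 6 members. Dnah11, Dnah9 and Dnah5 encode the heavy chains, the motors of the arm, and Dnai1 an intermediate chain that docks them. Dnah11 stood at 196, 162, 220 and 197 CPM in sets 1 to 4, and Dnah9 at 172, 143, 220 and 216 CPM. Dnai1 stood at 135, 138, 206 and 235 CPM, and Dnah5 at 128, 108, 252 and 159 CPM. All 4 genes were lowest or second lowest in set 2 and lay under 0.1 CPM in the other gated cells. The second intermediate chain, Dnai2, was lower in ependymal cells than these at 55.2 CPM and was also found in the other cells at 1.13 CPM.

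Dnah8, a heavy chain known from the sperm tail of mice, had no UMI in the 165 ependymal cells. It was called lower, with 31 UMIs in the other cells, or 0.319 CPM, a level at which 0.838 UMIs would fall in the ependymal cells. A count of 0 there allows up to 1.14 CPM, so a difference was not detectable at this depth. The rule for lower calls takes in 19.1% of all genes, and 10.9% when an ependymal sum under 3 UMIs is counted as 3, which leaves no member lower.

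All 10 inner arm members were higher. Dnah12, a heavy chain of the single-headed inner arms, stood at 694, 592, 736 and 845 CPM in ependymal cells of sets 1 to 4. Cfap43 and Cfap44, which tether a pair of inner arm motors to the doublet, stood at 556, 507, 857 and 654 CPM and at 554, 526, 569 and 648 CPM. Dnah6, another heavy chain, stood at 316, 277, 469 and 311 CPM. Set 2 was the lowest for each of these 4 genes, and no set came below 277 CPM, while pooled levels in the other cells lay between 0.103 and 0.679 CPM. Dnah6 was 3076 times as high as in the other cells (95% conditional binomial interval 1664 to 6439), with 10 UMIs among those cells.

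The 3 genes of the nexin-dynein regulatory complex were all higher. Drc1, its scaffold, stood at 335, 377, 437 and 330 CPM. Drc3 was at 157, 142, 185 and 305 CPM and Drc7 at 115, 103, 164 and 102 CPM. Set 4 was thus highest for Drc3 and lowest for Drc1 and Drc7. Drc7 had 3 UMIs in the other gated cells, a ratio of 3710 (1257 to 18090).

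All 6 radial spoke members were higher. Rsph1 and Rsph9, both of the spoke head, stood at 455, 525, 412 and 540 CPM and at 364, 355, 338 and 489 CPM. Rsph10b followed at 317, 262, 434 and 426 CPM, and Cfap206, which docks a spoke to the doublet, at 131, 152, 167 and 165 CPM. Set 4 was the highest for Rsph1 and Rsph9, and set 3 for Rsph10b and Cfap206. Rsph14 had no UMI in the other gated cells and 50 in ependymal cells, which makes it at least 616-fold higher when the other cells are counted as 3 UMIs over the group.

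Central apparatus genes were higher for 9 of 9 members. Spag17, which builds one of the projections of the central pair, stood at 398, 411, 348 and 229 CPM. Cfap70 was at 163, 173, 181 and 210 CPM, Cfap69 at 178, 143, 206 and 178 CPM, and Spag6l at 133, 174, 203 and 216 CPM. Spag17 was lowest in set 4, the set in which Cfap70 and Spag6l were highest. Spag17 also had the largest ratio of all members that had any UMI in the other cells, 5382 (2603 to 13421), resting on 7 UMIs there. Spag6 stood at 4.95 CPM, on 13 UMIs, beside 161 CPM for its close relative Spag6l; the 2 genes are similar in sequence, so the division of reads between them is uncertain.

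Microtubule inner proteins were higher for 12 of 12 members. Cfap126, also called Flattop, stood at 912, 1020.0, 896 and 991 CPM. Cfap45 stood at 575, 655, 697 and 603 CPM, Cfap161 at 383, 423, 466 and 426 CPM, and Tekt1, a tektin filament protein, at 286, 353, 359 and 400 CPM. Set 1 was the lowest for the last 3 genes. The tektins Tekt4 and Tekt3 had 5 and 2 UMIs in the other gated cells, with ratios of 4215 (1796 to 13031) and 4030 (1102 to 33488).

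Dynein assembly factors were higher for 3 of 3 members. Cfap298 stood at 425, 442, 480 and 591 CPM, Spag1 at 115, 90.7, 121 and 121 CPM, and Cfap300 at 81.6, 70.4, 71.1 and 95.3 CPM. Set 4 was the highest for Cfap298 and Cfap300. Cfap298 nevertheless had one of the 5 smallest ratios among the members called higher, 8.56 (8.03 to 9.12), since it stood at 52.3 CPM in the other cells.

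The remaining members called higher belong to none of these structures. Cfap36 had a ratio of 4.33 (3.99 to 4.68), Cfap97 one of 3.52 (2.99 to 4.12) and Cfap410 one of 8.16 (6.83 to 9.70). With Cfap298 and the microtubule inner protein Cfap20, at 9.51 (8.79 to 10.3), they made up the 5 smallest ratios. Cfap157, on 51 UMIs, stood at 19.4 CPM in ependymal cells and 0.0721 CPM in the other cells.

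The 3 members that work outside the axoneme were not called higher or lower. Spag9, a scaffold for kinases and motor proteins on vesicles, stood at 141, 142, 139 and 152 CPM in ependymal cells and 170 CPM in the other gated cells. Spag7 stood at 36.5, 29.0, 46.2 and 44.5 CPM beside 32.3 CPM, with a median log2 ratio of 0.35, or -0.13 with TMM scaling. Spag5, a protein of the mitotic spindle, had 15 UMIs in ependymal cells, 5.71 CPM beside 1.92 CPM, a pooled ratio of 2.97 (1.63 to 5.02). It was past 2-fold in set 3 alone, and set 4 had no ependymal UMI of it.

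The share of cells with a UMI followed the levels broadly, but not in strict order. Cfap45 was found in 100% of ependymal cells, Cfap126 in 98.8%, Tekt1 in 97.6%, Cfap298 in 97.6% and Dnah12 in 95.8%. Depth differs between types, so each cell with at least 2000 UMIs was also thinned to 2000, which kept 161 ependymal cells and 3528 of 3563 microglia, cells that should lack a motile cilium. On thinned counts Cfap126 was found in 83.9% of ependymal cells and 0.0567% of microglia, and Cfap44 in 70.8% of ependymal cells. Dnah12 was found in 68.3% and 0.0567%, Rsph1 in 57.1% and 0%, and Drc1 in 50.9% and 0%. Spag9 was found in 26.1% and 19.0%.

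**Figure D2:**
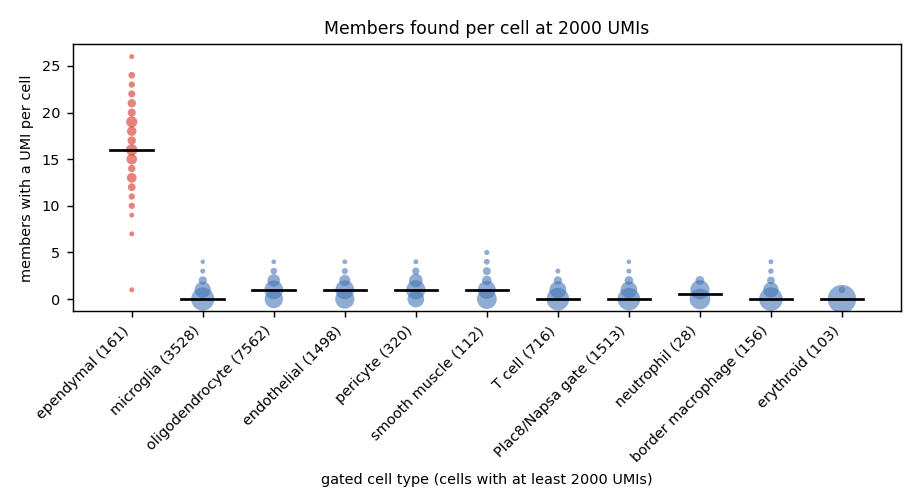
Number of members with a UMI per cell after thinning to 2000 UMIs (vertical axis) by gated type (horizontal axis, number of cells in brackets); the area of a dot grows with the share of the type's cells at that number, and the black line is the median. Ependymal cells have a median of 16 members, and the other types have medians of 0 to 1.

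Members were found together in the same cells. After thinning, an ependymal cell held 1 to 26 members with a median of 16, and medians by set were 16, 17, 19 and 18.5. Unthinned, the range was 9 to 51. The 43 members that were called higher and not found above leakage (defined with the levels outside ependymal cells) in another type are a group formed after their values were seen. On unthinned counts, at least 5 of them were found in 165 of 165 ependymal cells and in 6 of the 27772 other kept cells, and at least 10 in 160 and 1. Choosing the 43 in this way largely fixed that contrast. Ependymal cells were also deeper, at a median of 14267 UMIs beside 5337 in the other gated cells.

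Between sets, most members kept within 2-fold in ependymal cells. Of the 52 members with at least 50 ependymal UMIs, 15.4% differed 2-fold or more between the highest and lowest set, beside 36.5% of the 6191 genes that reach the same minimum. The latter are not matched to the members in abundance: the median was 426 UMIs for the members and 138 for these genes, so the shares carry different counting error. These 8 were Rsph3, Dnah5, Cfap157, Drc3, Tekt3, Dnah2, Cfap53 and Rsph14. The median ratio of highest to lowest set was 1.41 for the members and 1.75 for these genes, again not matched in abundance. Within the members, set 3 was the highest for 24 and set 4 for 22, and set 1 was highest for none. Set 3 was also the lowest for 11 and set 4 for 9. The same count over all genes is not given, so this order of sets is not read as particular to the members. Rsph3 and Cfap157 had 1 UMI each in set 4, and sets 3 and 4 hold 21 and 16 ependymal cells, so the counting error there is large.

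**Figure D3:**
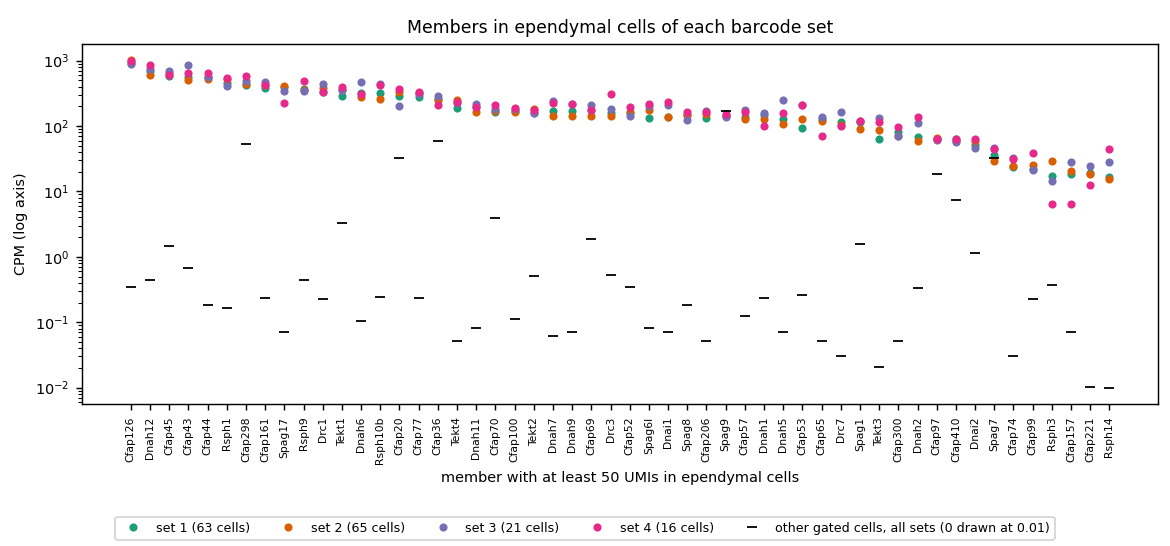
Level in CPM (log axis) of the 52 members with at least 50 UMIs in ependymal cells, ordered by their pooled level; coloured points are the 4 barcode sets and black bars the other gated cells of all sets. For most genes the 4 points lie close together, and Rsph3 and Cfap157 are the most widely spread. The black bar lies far below the points except for Spag9 and Spag7 and, less widely, Cfap298, Cfap20, Cfap36, Cfap97 and Cfap410.

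The other genes of the pathway, in lists assembled with earlier results of these data known, were mostly high in the same cells. Of 46 further axoneme genes, 46 were higher, with a median log2 ratio of 6.26. Hydin, a giant protein of the central pair, stood at 629 CPM against 0.124 CPM, and Mlf1 at 998 against 5.06 CPM. Of 11 dynein assembly genes, 10 were higher, with a median of 6.04; Zmynd10 stood at 330 CPM against 1.44 CPM. Dnaaf2, the exception, had a median log2 ratio of -1.31 and was not called.

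Intraflagellar transport genes, which serve motile and primary cilia alike, were higher for 19 of 21, with a median log2 ratio of 2.69. Traf3ip1 was the furthest apart at 272 CPM against 6.71 CPM, and Ift20 was close to the threshold at 254 against 108 CPM. Ttc21b and Kif3b were not called. Of 4 examined regulators of the multiciliated programme, Rfx2 (111 against 0.772 CPM), Myb (123 against 0.185 CPM) and Deup1 (37.3 against 0.0309 CPM) were higher. Rfx3 was not called, at 64.7 against 24.0 CPM. Mcidas had 0 and Gmnc 3 UMIs in ependymal cells, and Foxj1 was not analysed here.

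Promoter sequences, from 250 bases before to 50 after a gene's start, were taken from RefSeq (rat build GRCr8) for 50 of the 57 members, 45 of them called higher. The half-site of the X-box, the motif bound by RFX factors, was searched as GTTGCC on both strands. It lay in at least 1 window of 18 of these 45 members (40.0%), beside 13.1% of 27457 genes; counted by window, since members have more windows per gene, it lay in 29.6% of 71 member windows and 12.2% of 33469. The longer X-box palindrome, both half-sites in loose spelling around a spacer, which can overlap the half-site, lay in 5 of 45 members (11.1%) and 1.37% of genes. The forkhead motif TGTTTAC lay in 3 of 45 members (6.67%) and 4.13% of genes. Another forkhead spelling, TGTTTGT, lay in 6.67% of members and 6.88% of genes, and the spelling TGTTTGC lay in 6.67% and 5.30%. By window the shares of these 3 spellings were 5.63%, 4.23% and 4.23% for members and 3.78%, 6.42% and 4.88% for all. The palindrome lay in 7.04% of member windows and 1.28% of all. A further motif, the E-box CACGTG, lay in 5 of 45 members (11.1%) and 7.08% of genes. By window the E-box lay in 7.04% for members and 6.42% for all. In all 9 spellings were searched after the values were known, and a match is a description of letters, not of binding. The 5 palindromes and 4 of the half-sites in structural genes are shown with up to 30 bases on either side, on the gene's strand, with the match in capitals:
Cfap298, chr11:43677570-43677632, minus strand: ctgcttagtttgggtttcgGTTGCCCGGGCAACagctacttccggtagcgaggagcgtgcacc
Dnah12, chr16:1944660-1944733, plus strand: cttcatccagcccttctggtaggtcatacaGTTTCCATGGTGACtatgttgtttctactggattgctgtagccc
Dnah2, chr10:54766028-54766101, minus strand: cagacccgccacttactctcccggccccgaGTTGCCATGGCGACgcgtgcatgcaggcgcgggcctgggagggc
Spag6, chr17:86261924-86261997, plus strand: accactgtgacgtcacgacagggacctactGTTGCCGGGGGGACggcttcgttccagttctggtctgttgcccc
Spag6l, chr11:97677746-97677819, plus strand: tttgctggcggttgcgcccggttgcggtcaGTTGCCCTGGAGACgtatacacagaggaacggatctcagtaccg
Tekt1, chr10:57479125-57479190, minus strand: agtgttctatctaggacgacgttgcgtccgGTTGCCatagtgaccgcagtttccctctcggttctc
Tekt2, chr5:143907725-143907783, minus strand: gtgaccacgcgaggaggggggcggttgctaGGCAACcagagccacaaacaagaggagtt
Drc1, chr6:31779257-31779305, minus strand: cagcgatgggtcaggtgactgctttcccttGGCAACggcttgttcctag
Dnai2, chr10:100258937-100259002, plus strand: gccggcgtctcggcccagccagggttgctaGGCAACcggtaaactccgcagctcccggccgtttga
In Cfap298 the palindrome begins 231 bases before the start, and in Dnah2, Dnah12 and Spag6l 45, 62 and 64 bases before it. GGCAAC is the half-site read on the opposite strand, and it begins 19 bases before the start of Drc1.

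Outside ependymal cells, a UMI can come from free RNA of lysed ependymal cells. The leak of each type was estimated from 7 further cilium genes (Tmem212, Odf3b, Enkur, Hydin, Ak7, Sntn and Pifo) as their summed CPM in the type over that in ependymal cells. It was 0.289% in microglia, 0.135% in endothelial cells and 0.0876% in oligodendrocytes. In microglia it rested mostly on Enkur, at 7.33 of 7.73 CPM. Single genes weighed heavily elsewhere too, with Odf3b at 1.86 of 3.61 CPM in endothelial cells and Ak7 at 1.29 of 2.34 CPM in oligodendrocytes. The estimate is therefore not an even share of the 7 genes. A member was taken as above leakage in a type of at least 50 cells with at least 20 UMIs, 5 CPM and 5 times its leak-expected level. This held for 11 members in at least 1 of 10 types, and these 11 were among those found under each alternative run for it.

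Spag9, Spag7, Cfap36, Cfap298, Cfap20, Cfap97 and Cfap410 were found broadly. Where above leakage, Spag9 stood between 48.1 CPM in T cells and 222 CPM in oligodendrocytes. Cfap36, a partner of the small GTPase ARL3, stood at 92.8, 91.2, 88.8 and 90.9 CPM in oligodendrocytes of sets 1 to 4 and at 22.0 CPM in microglia. Cfap298 followed the same order, at 80.5 CPM in oligodendrocytes and 17.1 CPM in microglia.

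Cfap20, which sits at the inner junction of the doublet, was instead highest, among the other types of at least 50 cells, in pericytes at 128, 125, 138 and 158 CPM, followed by T cells at 98.0, 103, 79.4 and 60.5 CPM. Oligodendrocytes stood at 28.3 CPM and microglia at 25.0 CPM. Among the same types Cfap97 was also highest in pericytes, at 62.8 CPM (95% Poisson interval 49.6 to 78.5), close to its 63.9 CPM in ependymal cells. Where above leakage, Cfap410 stood between 5.64 CPM in oligodendrocytes and 11.1 CPM in cells gated on Plac8 and Napsa. That gate was fixed for monocytes, but 98.6% of its cells carried Plac8, and 84.2% and 84.6% carried the microglial and macrophage genes Csf1r and Ctss, so they are named by the gate.

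The 4 remaining members were found above leakage in 1 or 2 types. Cfap45 was found in endothelial cells at 17.2, 14.3, 8.52 and 9.17 CPM, beside a leak-expected 0.840 CPM, and in 4.28% of these cells. Spag1 was found in the same cells at 9.78, 13.3, 3.79 and 6.03 CPM, beside 0.144 CPM. For both, the highest values were those of sets 1 and 2. These sets also held 63 and 65 of the 165 ependymal cells, from which leakage would come. The leak-expected level was computed with all sets pooled, and whether leakage differed between sets was not tested.

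Tekt1 was found in oligodendrocytes at 8.08, 8.73, 3.49 and 5.05 CPM, beside a leak-expected 0.286 CPM, in 3.54% of cells. Its highest values too were those of sets 1 and 2, which held most of the ependymal cells, and its leak-expected level was likewise pooled over sets. Cfap70 stood at 6.62, 8.0, 8.89 and 10.3 CPM in microglia, beside 0.496 CPM, and at 8.31 CPM in cells gated on Plac8 and Napsa. No member was above leakage in erythroid cells, in which the members summed to 28.6 CPM.

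Spag5 stood higher in cells with dividing markers. In 53 cells with at least 5 UMIs over Mki67, Top2a, Birc5, Cdk1 and Ccnb1, none of them ependymal and 18 of them gated as T cells, Spag5 stood at 22.0 CPM beside 1.34 CPM in the rest, a ratio of 16.4 (10.5 to 24.7). The ratio was 2.99 (1.54 to 5.27) for Tekt2, at 10.2 CPM, and 2.25 (1.82 to 2.76) for Cfap20, at 80.5 CPM. The rest include all ependymal cells, which held 447 of the rest's 565 Tekt2 UMIs and 799 of its 5937 Cfap20 UMIs. The ratio for Tekt2 is thus set mostly against ependymal UMIs. Gated T cells as a whole stood at 79.5 CPM for Cfap20, about the level of the dividing cells, and at 3.29 CPM for Spag5 and 0.597 CPM for Tekt2.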

How the data were processed

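The deposited matrix holds UMI counts per gene and barcode, whole numbers with no normalisation, written by Cell Ranger 5.0.0 per the file headers; the submitters' processing notes also name STAR and the build Rnor_6.0. No source used here names the annotation or the strand handling. No barcode held under 500 UMIs. Members and gene lists were chosen with earlier results of these data known.

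Cells were kept with at least 500 UMIs, 300 genes and at most 20% mitochondrial UMIs (28879 of 31638 barcodes). Scrublet was run per set (expected share 6%, seed 1) and removed 942 cells as doublets, 10 of them ependymal. Gated types needed at least 5 UMIs over their markers and exactly 1 gate. CPM was computed from UMIs summed over cells. Ratios are of CPM, log2 values carry 1 CPM on both sides, and 95% intervals (Poisson or conditional binomial) cover counting error only. With 1 library per titled sample no test was made. Levels of 3′ UMIs are not scaled by gene length. Named genes were, in each role group, the 4 members with most ependymal UMIs, members above leakage elsewhere, members not called higher, and the 5 largest and 5 smallest ratios; Dnai2, Drc3, Drc7, Rsph14, Spag6 and Cfap157 were added where a count or a set stood apart, after their values were seen. The rule for higher and lower calls was tested on simulated sums, and the other steps were not. Tools were scanpy 1.11.5, scipy 1.17.1, Python 3.11.15 and edgeR 4.0.16 (TMM factors only) on R 4.3.3.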

Additional observations from a re-analysis of the deposited data

How the results depend on the processing

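Of 798 member values under other settings, 737 kept their call, and 12 changed sign. With the 13 ependymal cells that pass no other gate, 15 members were higher, the median log2 ratio was 6.25 and the summed level 10520 CPM; the ratio changed sign for Dnah5 (-0.041), Cfap157 (-0.11), Cfap74 (-0.029), Drc3 (-0.58), Spag5 (-1.42), Dnai2 (-1.08), Spag6 (-0.13), Cfap97 (-1.42), Spag7 (-2.05) and Spag9 (0.051), the last 2 uncalled throughout, and that choice leaves few cells per set. The median was 6.56 with TMM, which moved all genes by -0.28 and Spag7 to -0.13, and 7.09 with cells thinned to 2000 UMIs, where 43 of 47 members were higher and Spag5 stood at -0.68. The summed level was 11378 CPM over all barcodes, 11384 CPM with doublets kept and 12236 CPM thinned. Leaving out 1 set in turn gave 11447 to 11918 CPM and 50 to 51 members higher. Among alternatives added after seeing the data, cells passing no gate but the astrocyte, choroid plexus or precursor gate gave 11872 CPM, and counting an ependymal sum as at least 3 UMIs gave 0 members lower. The 11 members above leakage became 13 (Cfap43 and Cfap53 added) with a minimum of 1 UMI; TMM was not run for that count or for the summed level. Causes were not tested. No paired analysis was possible because no set is tied to a titled sample.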

Other observations

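Among 31 cells gated as oligodendrocyte precursors, too few for the comparisons above and singled out after their values were seen, Cfap52 had 18 UMIs in 11 cells, 132 CPM (95% Poisson interval 78.1 to 208), with 3, 5, 4 and 6 UMIs in sets 1 to 4. Cfap20 had 60 UMIs in 24 of these cells, 439 CPM (335 to 565). The 7 genes used to estimate leakage had 0 UMIs there. When the 10 cells that pass the precursor gate and another gate are added, Cfap52 stood at 70.4 CPM in 41 cells, with 19 UMIs in all, and Cfap20 at 271 CPM (212 to 340), with 73 UMIs. In ependymal cells Cfap52 stood at 161 CPM and Cfap20 at 304 CPM.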
